A study of Homo sapiens with 8 samples.

Results

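The comparison described here is that of LNCaP cells with miR-375 overexpressed against LNCaP control cells, followed across all genes of a deposited table of gene counts. It uses 4 of the 8 libraries of the series: 2 labelled as the negative control and 2 labelled as miR-375 overexpression. LNCaP is a human prostate carcinoma line that was derived from a lymph node metastasis, responds to androgen and makes prostate-specific antigen. All 4 cultures were grown in RPMI-1640 with 10% serum. The other 4 libraries are the same pair of groups in PC3, a prostate carcinoma line from a bone metastasis, grown in 20% serum. They entered the estimate of the spread and a comparison of effects. The means and duration of the overexpression, the treatment of the control cells and the clonality of the line are not stated in the labels. Nor do the labels say that libraries of 1 group were grown apart, so that the p-values speak only of the spread among these libraries, which may be technical.

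A microRNA is a short RNA that is loaded into an Argonaute protein and pairs with messenger RNAs, mostly in the 3′ untranslated region (UTR), through a stretch near its 5′ end called the seed. Pairing shortens the life of the messenger and lowers its translation. miR-375 is best known as an abundant microRNA of pancreatic islets, where it restrains insulin release, and it is also abundant in many prostate carcinomas. Reported messengers under its control include MTDH, YAP1, SEC23A and QKI.

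The mature strands of the MIR375 hairpin are shown because every site search below rests on the seed of the first. They are the RefSeq sequences on GRCh38.p14, read 5′ to 3′, with the seed (bases 2 to 8) in capitals.
hsa-miR-375-3p: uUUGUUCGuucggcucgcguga
hsa-miR-375-5p: gCGACGAGccccucgcacaaacc
The 3p strand lies at chr2:219001648-219001669 and the 5p strand at chr2:219001682-219001704, both on the minus strand. The deposited row of MIR375 held 0 counts in all 8 libraries. A library selected for poly(A) tails does not hold mature microRNAs, so this row tests neither label nor overexpression.

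Sites were searched on the messenger strand of 1 UTR model for each of 19559 protein-coding genes. An 8mer is CGAACAAA, a 7mer-m8 is CGAACAA, a 7mer-A1 is GAACAAA and a 6mer is GAACAA, and each gene was placed in its longest class, so the classes do not overlap. Of all UTR models, 0.389% held an 8mer, 0.557% had a 7mer-m8 as the best match, 12.3% a 7mer-A1 and 12.5% a 6mer. The first pair of classes is rare beside the third. The following 22-base windows, with the match in capitals, come from the UTRs of genes that fell, and they were picked after the values were seen, for the size of the fall within each class or, in the last 3, as reported targets.
WBP1L: ttactgtttacCGAACAAAtgt
REST: aggttgcatgtCGAACAAAttt
RBM24: aaaatgggcatCGAACAAtcaa
RFC3: gtgacagactcCGAACAAttcc
FAM111B: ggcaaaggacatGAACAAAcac
CBX3: actggttactttGAACAAAtaa
TYMS: tgctgaggttatGAACAAAgtg
POC1B: ggcccaataaatGAACAAAtgt
YAP1: acagaaaaagatGAACAAAcgt
SEC23A: tgagagcaataaGAACAAAttt
LDHB: atctgagctcttGAACAAAtaa
On GRCh38 with GENCODE release 29 these windows lie at chr10:102815154-102815175 (WBP1L), chr4:56933159-56933180 (REST), chr6:17292655-17292676 (RBM24), chr13:33837061-33837082 (RFC3), chr11:59126584-59126605 (FAM111B), chr7:26212379-26212400 (CBX3), chr18:673222-673243 (TYMS), chr12:89421100-89421121 (POC1B), chr11:102230036-102230057 (YAP1), chr14:39033042-39033063 (SEC23A) and chr12:21635361-21635382 (LDHB). POC1B, SEC23A and LDHB are on the minus strand and the others on the plus strand. A match is a description of the sequence and does not show that miR-375 binds there.

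Levels are given in CPM, gene counts brought to 1 library size, for library 1 and then library 2 of a group. The scaling is TMM, which sets library sizes so that most genes do not change. CPM is not divided by gene length, so levels of different genes are not compared. Rises and falls named here are those where the adjusted p of edgeR's quasi-likelihood test was under 0.05 over 21066 tested genes. A fold is the ratio fitted by that test.

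The genes of these windows show what a clear fall looked like in the 4 libraries. CBX3, which encodes a heterochromatin protein, stood at 638 and 609 CPM in the controls and 176 and 171 with miR-375, a fall of 3.60-fold (log2 change -1.85 ± 0.037 SE, adjusted p = 1.3e-29). RBM24, an RNA-binding protein of splicing, fell 3.62-fold from 53.3 and 59.1 to 16.7 and 14.3 CPM. In both genes both libraries with miR-375 lay far below both controls. WBP1L, with 3 matches of 7 or 8 bases in its UTR, fell 2.695-fold, from 53.3 and 52.1 to 19.5 and 19.6 CPM. POC1B, a centriole gene with 4 matches, went from 17.2 and 19.3 to 5.83 and 5.12 CPM. REST, which encodes the silencer of neuronal genes in other tissues, fell 1.62-fold, from 53.7 and 55.6 to 33.0 and 34.3 CPM. The control values of each of these 3 genes lay close together, and no control reached down to a library with miR-375.

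Genes with a seed match in the UTR fell more often than genes without one. Among 12246 genes with a UTR model and at least 1 CPM in the higher LNCaP group, 30.2% fell and 19.8% rose, against 18.7% and 13.9% of all tested genes. Of the 1818 genes with a match of 7 or 8 bases, 793 (43.6%) fell and 251 (13.8%) rose, and the median log2 change was -0.15. Of the 8754 with none, 2337 (26.7%) fell, at a median of -0.01. Falls of at least 2-fold made up 5.01% of the first set and 2.27% of the second. With library totals in place of TMM the medians of the 2 sets were 0.15 apart too. A change of scaling moves all genes by nearly the same amount, so that gap could hardly change. These are counts over genes, which are not replicates, and no test was made of the sets.

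Among the single classes, the 1697 genes with a 7mer-A1 fell in 43.9% of cases, the 71 with a 7mer-m8 in 40.8%, the 50 with an 8mer in 38.0% and the 1674 with a 6mer in 33.7%. The medians were -0.16, -0.10, -0.13 and -0.06, so the longest class did not have the lowest median. The share that fell was 42.2% with 1 match, 48.9% with 2 and 50.0% of 90 genes with 3 or more, at medians of -0.14, -0.23 and -0.20. The shift was widest in short UTRs. With a UTR of up to 500 bases, 56.1% of the 82 genes with a match fell (median -0.35), while 26.9% of those without one did (-0.04). With over 3000 bases the shares were 39.7% and 24.8%. At 100 CPM or more 68.4% of genes with a match fell and 48.2% without one, and between 1 and 10 CPM the shares were 18.6% and 9.22%.

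A match of 7 or 8 bases in the coding sequence alone went with a smaller shift. Of 1445 such genes 37.0% fell, at a median of -0.10, whereas of the 5191 with a match in neither place 23.1% fell, at a median of 0.02. With matches in both places, 50.8% of 417 genes fell, at a median of -0.22. The 46 genes with a match to the 5p strand and none to the 3p strand rose in 12 cases and fell in 11. Leaving out the members of the 7 cell division lists described below, 43.2% of genes with a match and 25.5% of those without fell, so the shift was also there outside those lists. In PC3, 40.5% and 28.1% of the same 2 sets fell.

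**Figure D1:**
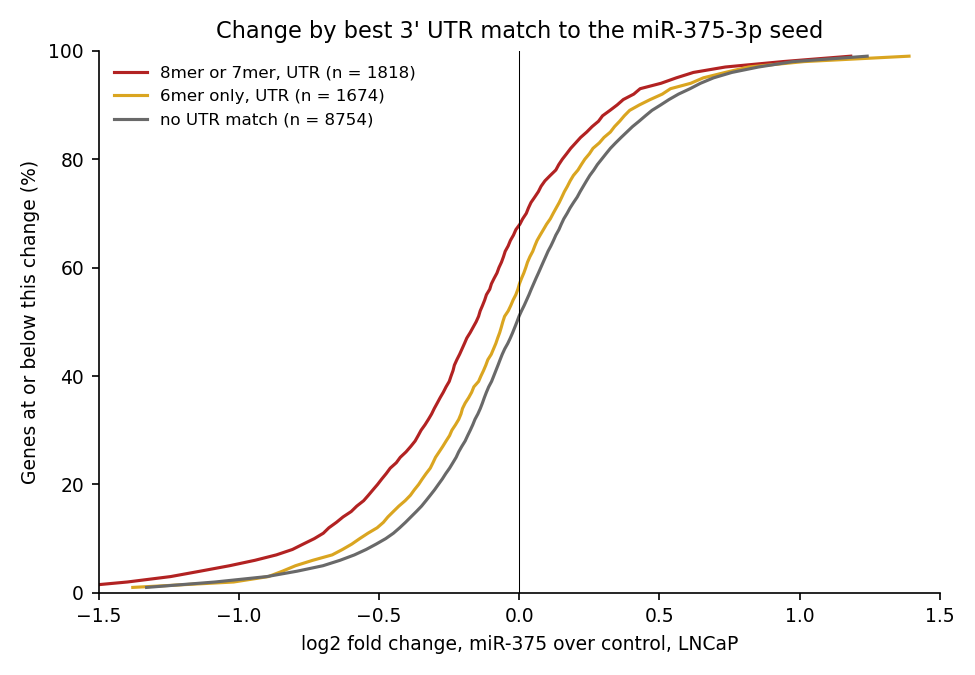
Cumulative share of genes (vertical axis, percent) up to each log2 change of miR-375 over control in LNCaP (horizontal axis), for genes with an 8mer or 7mer in the UTR (n = 1818), a 6mer only (n = 1674) or no match (n = 8754). The curve of the 8mer and 7mer genes lies to the left of the others, with a median of -0.15 against -0.01 without a match.

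Genes with a match also rose. SYP, BCL2L1, RSAD2 and GPR153 each hold a match of 7 bases and rose. BCL2L1, which encodes a protein that blocks apoptosis, went from 79.7 and 73.1 to 114 and 114 CPM, and the synaptic vesicle gene SYP from 0.997 and 1.15 to 4.96 and 6.67 CPM. A seed match in a UTR was therefore neither enough for a fall nor shared by all falls.

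Of the 37 genes listed as reported targets from the literature, 36 were tested, 27 fell, 3 rose and 6 were not called, at a median log2 change of -0.59 against 0.00 over all tested genes. With library totals 21 fell. A match of 7 or 8 bases was present in 28 of the 36. The kinase genes PDK1 (89.9 and 89.4 to 66.4 and 57.5 CPM, 1.45-fold) and PDPK1 (44.3 and 43.5 to 37.4 and 34.6, 1.22-fold), which act in glycolytic control and in insulin signalling, both fell. USP1, a deubiquitinase of DNA repair, fell 2.35-fold from 92.5 and 96.0 to 40.4 and 39.7 CPM, and KLF5, an epithelial transcription factor, fell 2.28-fold from 12.5 and 13.9 to 5.85 and 5.68. QKI, an RNA-binding protein with 4 matches, fell 1.58-fold, from 66.7 and 61.8 to 44.0 and 37.3 CPM. The falls were thus of unequal size among genes reported as targets. JAK2 (12.7 and 11.1, then 9.84 and 11.1 CPM), ATG7 (26.4 and 27.5, then 25.02 and 26.004) and ATG2B (25.1 and 27.8, then 27.0 and 28.6) hold a match and were not called, and in each the groups overlapped or nearly touched. CBX7, MMP13 and NGFR rose, and none of these 3 has a match longer than 6 bases.

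Over all genes, 6860 of 21066 (32.6%) changed: 2927 rose (13.9%) and 3933 fell (18.7%). At an unadjusted p under 0.05 there were 8429. At least 2-fold, 507 rose (2.41%) and 465 fell (2.21%), and at least 4-fold, 170 rose and 119 fell (0.565%). The 2 controls and the 2 libraries with miR-375 did not overlap in 62.9% of all tested genes, and in 6841 of the 6860 that were called. Rises were 42.7% of the calls. That share depended on the scaling, the filter and the count unit: it was 64.4% with library totals (4719 rose and 2613 fell), 59.4% with upper-quartile scaling (4236 and 2893), 48.4% with DESeq2 (2965 and 3157), 54.2% with a minimum of 1 CPM (3742 and 3162), 54.3% without a filter (3634 and 3054) and 53.4% with halved counts (3889 and 3399), while limma-voom gave 42.5%. Library totals moved the median of all genes by 0.12 on the log2 scale. The direction of a small change is therefore given relative to the TMM scale, and bulk RNA cannot tell fewer cells of a kind from less RNA per cell.

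Direction followed the level. Among the 2224 genes at 100 CPM or more, 1144 (51.4%) fell and 402 (18.1%) rose, at a median of -0.12, and with library totals that median was 0.00. Between 10 and 100 CPM 31.1% of 7290 genes fell and 20.9% rose. Between 1 and 10 CPM the order turned, with 7.89% of 4640 falling and 15.6% rising (median 0.13), and under 1 CPM 2.23% of 6912 fell and 3.99% rose (0.12). Long intergenic RNAs rose more often than they fell, 135 against 32 of 1521, with a median of 0.28, and antisense genes did so too, 99 against 23 of 1589 (0.19). Part of that gap remained at equal level: between 1 and 10 CPM the 435 long intergenic RNAs had a median of 0.31 and the 2859 protein-coding genes one of 0.12. Processed pseudogenes had 7 rises and 22 falls among 1009. Antisense and overlapping genes are uncertain, since no source used here gives the strand setting of the counting.

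**Figure D2:**
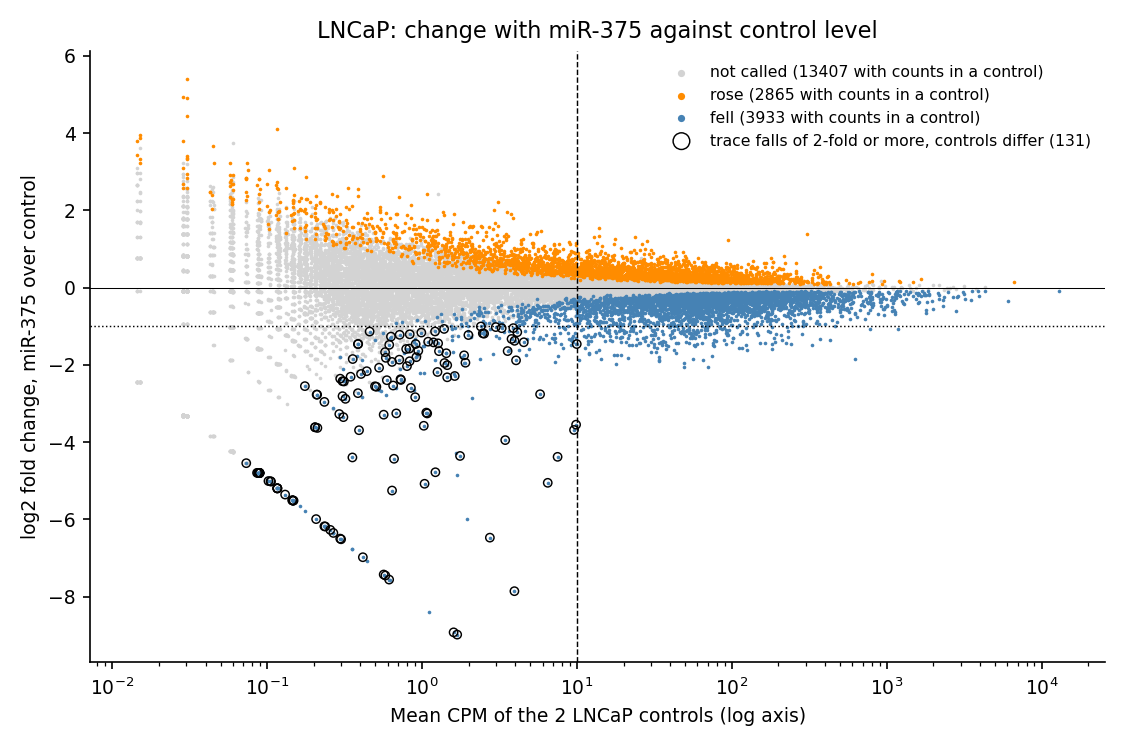
Log2 change of miR-375 over control in LNCaP (vertical axis) against mean CPM of the 2 controls (horizontal log axis) for the tested genes that had counts in a control, with genes that rose in orange, genes that fell in blue and the rest in grey. The 131 strong falls of trace genes with unequal controls are circled, all left of the dashed line at 10 CPM, and below the dotted line that marks a 2-fold fall.

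The 10 largest falls among genes at 10 CPM or more included genes that start DNA replication. CDC6, which loads the replicative helicase, fell 4.16-fold from 68.9 and 70.6 to 17.1 and 16.4 CPM (log2 change -2.06 ± 0.076 SE, adjusted p = 4.4e-22). MCM10, which helps to start unwinding, fell 4.16-fold from 49.3 and 49.1 to 11.9 and 11.8. These were the only genes at 10 CPM or more in the controls that fell at least 4-fold. CLSPN, a mediator of the replication checkpoint, went from 16.2 and 19.7 to 4.82 and 4.35 CPM. UHRF1, which directs maintenance DNA methylation, went from 49.7 and 48.1 to 13.0 and 12.4. DTL, an adaptor of the ubiquitin ligase that removes CDT1 in S phase, went from 34.9 and 32.6 to 9.76 and 8.64. In all of these genes the libraries of a group lay within a small part of the distance between the groups. The others were ZNF367 (32.9 and 34.7 to 8.08 and 9.94 CPM), the repressor E2F8 (13.8 and 14.6 to 4.23 and 3.60), FAM111B (62.8 and 67.5 to 17.7 and 18.2), RBM24 and WWTR1. WWTR1, which encodes the Hippo pathway coactivator TAZ, fell 3.66-fold from 11.1 and 9.37 to 2.76 and 2.82 CPM and has no seed match of 6 bases or more in its UTR model.

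The 10 largest rises at that level started from low controls. OASL, an interferon-stimulated gene, rose 4.63-fold from 3.20 and 2.98 to 14.7 and 13.9 CPM (log2 change 2.21 ± 0.13 SE, adjusted p = 8.3e-17). IFIT2, another, rose 3.76-fold from 4.11 and 3.38 to 15.1 and 13.1. ARG1, the urea cycle arginase, rose 3.87-fold from 3.26 and 3.75 to 13.8 and 13.4. None of these 3 was above 5 CPM in a control. C1QTNF6 went from 3.81 and 3.95 to 13.4 and 13.8 CPM and the synaptic active zone gene RIMS3 from 6.08 and 5.56 to 17.2 and 15.0. The oestrogen-binding receptor gene GPER1 went from 5.14 and 5.81 to 15.3 and 13.6. Also among the 10 were the noncoding genes LCAL1 (6.38 and 4.73 to 15.4 and 14.8 CPM) and GPC5-AS1 (4.41 and 5.47 to 12.7 and 13.3). CLEC7A (2.72 and 3.09 to 11.6 and 11.6 CPM) and GPNMB (14.02 and 13.7 to 41.6 and 39.7), a glycoprotein of lysosomes and melanosomes, complete the set, and their calls were lost in DESeq2 at log2 changes close to those with edgeR (2.04 and 2.00 for CLEC7A, 1.59 and 1.55 for GPNMB, adjusted p = 0.151 for CLEC7A and 0.311 for GPNMB).

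**Figure D3:**
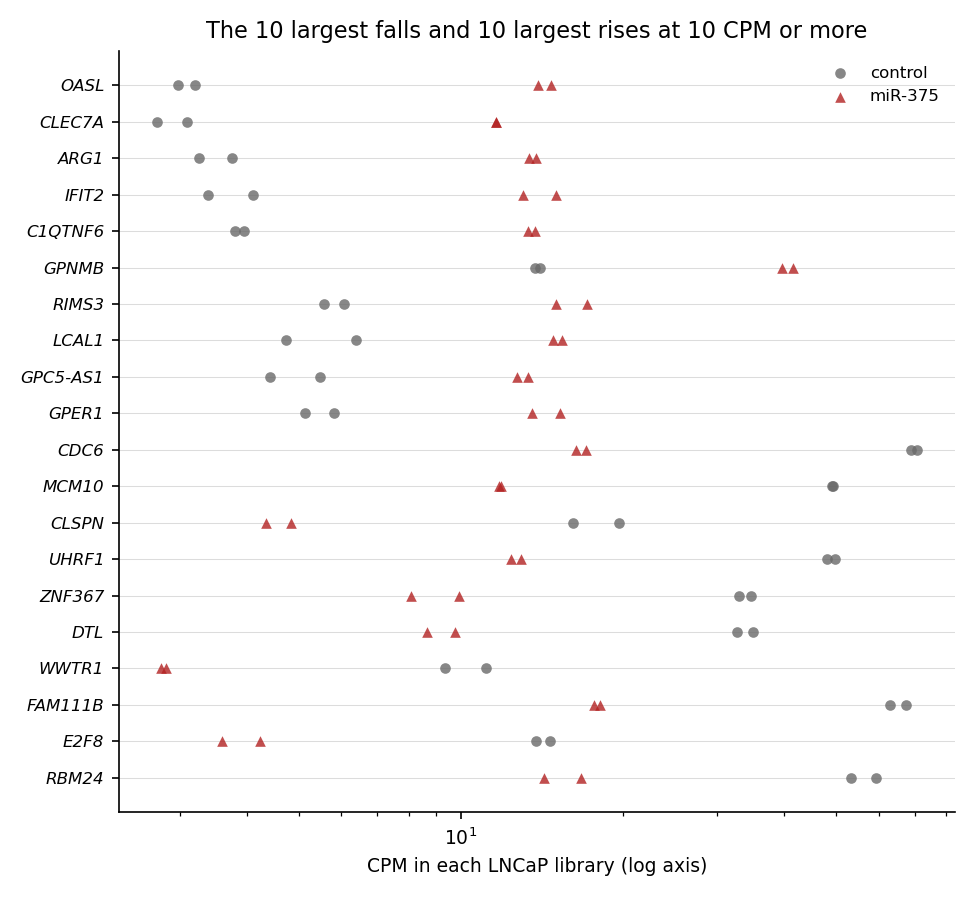
CPM in each of the 4 LNCaP libraries (log axis) for the 10 largest rises and the 10 largest falls at 10 CPM or more. The controls and the libraries with miR-375 stand apart in every gene shown, as the rule that picked these genes required.

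Counted in CPM rather than as a fold, the gains and losses involved other genes. The largest loss was that of EEF2, the elongation factor that moves the ribosome along the messenger, at 6109 and 6036 CPM in the controls and 4688 and 4786 with miR-375 (1.28-fold). KLK3, the gene of prostate-specific antigen, went from 2811 and 2762 to 1797 and 1861 CPM. AMD1, an enzyme of polyamine synthesis, fell 1.57-fold from 1781 and 1831 to 1190.3 and 1113. Each of these 3 fell under every alternative run. RPL4, a ribosomal protein gene, fell 1.24-fold and the splicing factor gene HNRNPA1 fell 1.40-fold. EEF1A1 stood at 12871 and 12915 CPM in the controls and 12180.2 and 11938 with miR-375, a fall of 1.07-fold. Its call was lost under several settings. With library totals its log2 change turned from -0.10 to 0.03 and was not called. CAMK2N1, an inhibitor of calcium/calmodulin-dependent kinase, rose 2.60-fold from 318 and 289.7 to 801 and 777 CPM. PERP, a membrane protein of p53-induced apoptosis and of desmosomes, rose 1.76-fold from 215 and 218 to 386 and 373, and CD164, a sialomucin, rose 1.44-fold from 366 and 371 to 556 and 504. The ferritin heavy chain gene FTH1 went from 804 and 805 to 1075 and 996 CPM. Among mitochondrial transcripts, MT-RNR2 stood at 6758 and 6485, then 7325 and 7301 CPM and MT-CO2 at 1694 and 1625, then 1947 and 1948, with log2 rises of 0.14 and 0.23.

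Gene groups were taken from 22 lists by role. Of 727 listed genes tested, 388 fell and 108 rose. In the following counts the share over all tested genes to set beside them is 18.7% for falls and 13.9% for rises, and the median over all tested genes is 0.00. Genes that sit in more than 1 list count in each.

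Genes of the replication origin and fork fell together: 43 of 48 fell and 0 rose, at a median log2 change of -1.14. Among the 15 genes of origin recognition and licensing 12 fell, including all 6 MCM helicase subunits and ORC1 (22.6 and 22.9 to 8.32 and 8.03 CPM), while ORC3, ORC4 and ORC5 were not called (ORC4 at 45.6 and 50.2, then 47.3 and 49.2 CPM). MCM5, a subunit of the helicase ring, fell 3.42-fold, from 77.1 and 72.6 to 21.1 and 22.7 CPM. All 10 genes of origin firing and unwinding fell. TICRR, which activates origins, went from 11.5 and 12.3 to 3.63 and 3.63 CPM. Of 23 genes of polymerases, clamp and ligation 21 fell, with the sliding clamp gene PCNA at 249 and 242 and then 125 and 123 CPM and the flap nuclease gene FEN1 at 155 and 150.7 and then 56.3 and 56.0. Their medians were -1.40, -1.26 and -0.87 in that order of roles. Only 3 of the 48, ORC4, GINS4 and RFC3, have a match of 7 or 8 bases in the UTR, and ORC4 did not fall.

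Nucleotide supply followed: 19 of 21 genes fell and 1 rose, at a median of -0.66. TYMS, which makes thymidylate, fell 3.49-fold from 32.5 and 35.6 to 10.7 and 8.83 CPM, and RRM2, the cell cycle-regulated subunit of ribonucleotide reductase, fell 2.77-fold from 182 and 181 to 67.8 and 63.0. RRM2B, the p53-inducible subunit of the same enzyme, rose from 82.3 and 87.5 to 119 and 105 CPM although its UTR holds a 7mer-A1. Its groups did not overlap. In the de novo purine and pyrimidine branch 12 of 13 fell, led by DHODH (53.5 and 52.4 to 24.3 and 27.1 CPM), the mitochondrial step of uridine synthesis. ADSL (11.3 and 12.2, then 9.89 and 11.2 CPM) was not called.

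Among 38 cyclins, kinases, E2F and RB family genes and inhibitors, 26 fell and 4 rose (median -0.52). The kinase gene CDK2 fell 2.72-fold from 42.5 and 45.2 to 15.9 and 16.3 CPM and the ubiquitin ligase gene SKP2, which has a 7mer-A1, fell 2.42-fold from 41.1 and 43.7 to 18.4 and 16.7. CCND1, the D-type cyclin, fell 1.18-fold, from 412 and 418 to 362 and 341 CPM. E2F1, an activator, went from 59.9 and 62.5 to 23.3 and 28.1, while RB1 (41.0 and 42.5, then 46.0 and 40.4) and RBL2 (59.3 and 66.4, then 69.6 and 67.5) were not called. The inhibitors ran the other way, with 4 of 7 rising: CDKN1A (218 and 208 to 318 and 282 CPM), CDKN1C (4.23 and 3.15 to 4.99 and 5.07), CDKN2B (0.967 and 0.945 to 1.49 and 2.05) and CDKN2D (9.79 and 9.65 to 11.7 and 12.9). The call of CDKN2D was lost without the second control (adjusted p = 0.0656) and without the second miR-375 library (0.132). CDKN2A fell, from 21.9 and 21.8 to 16.8 and 16.1 CPM.

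In repair by recombination and the Fanconi pathway, 22 of 26 fell and 0 rose, at a median of -1.15. EXO1, a nuclease that resects breaks, fell 3.54-fold from 19.3 and 23.3 to 5.94 and 6.12 CPM. FANCI, part of the clamp that marks crosslinks, fell from 74.1 and 76.4 to 26.9 and 28.5. RAD51D (13.7 and 15.5, then 14.1 and 16.1 CPM) was not called. FANCB (3.54 and 4.70 to 1.11 and 2.60 CPM) fell, and lost its call without the first miR-375 library (adjusted p = 0.0763).

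Kinetochore, spindle and cytokinesis genes fell in 37 of 41 cases and rose in 0 (median -0.99). The cytokinesis scaffold gene ANLN went from 74.96 and 77.0 to 26.7 and 27.2 CPM (2.82-fold) and the centromere gene CENPU from 59.8 and 59.5 to 21.9 and 21.4 (2.76-fold). All 11 checkpoint and kinase genes fell, TTK (32.4 and 31.0 to 13.8 and 13.1 CPM) the most among them. All 8 condensin genes fell, and 11 of 14 cohesin genes. CDCA5, which holds cohesin on replicated DNA, fell 2.58-fold from 76.2 and 77.6 to 30.4 and 29.3 CPM. The cohesin core gene STAG2 (161 and 161, then 159 and 151.1 CPM) and its partner STAG1 (26.3 and 27.8, then 27.6 and 25.6) were not called.

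Chromatin genes split by role. The 6 histone chaperones all fell, with the chromatin assembly factor gene CHAF1A at 60.6 and 59.6 and then 25.8 and 28.0 CPM. Among DNA methylation genes, those of maintenance, UHRF1, HELLS (32.1 and 32.3 to 9.92 and 10.2 CPM) and DNMT1 (148 and 144 to 63.4 and 66.7), fell with DNMT3B (8.89 and 7.45 to 3.85 and 4.18). DNMT3A (16.7 and 16.8 to 19.8 and 21.4 CPM), TET2 (13.3 and 14.5 to 16.2 and 17.3) and TET3 (32.3 and 33.1 to 38.7 and 39.4) rose. The split was between members of this short list and was not tested. In the polycomb complexes 6 of 13 fell, EZH2 from 33.97 and 32.3 to 20.03 and 20.6 CPM and SUZ12 from 82.4 and 93.0 to 53.0 and 54.6, and CBX7 rose from 12.1 and 11.1 to 14.3 and 16.4.

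RNA processing genes fell by smaller folds. Of 38 core splicing factors 32 fell and 0 rose (median -0.33, and 25 fell with library totals). SRSF1 went from 265 and 269 to 163 and 167 CPM and SRSF7, which has a 7mer-A1, from 309 and 309.7 to 198 and 202. Of 26 nuclear pore genes 23 fell (median -0.48, and 20 with library totals), among them NUP54 (69.7 and 72.8 to 37.7 and 35.5 CPM), which has a match, and NDC1 (135 and 145 to 74.4 and 72.0), which anchors the pore in the membrane. POM121, another anchor, rose from 64.9 and 74.8 to 82.7 and 85.3 CPM.

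Protein synthesis lists depended more on scaling. Of 20 cytosolic aminoacyl-tRNA synthetases 15 fell and 0 rose (median -0.20), but 9 fell and 3 rose with library totals. IARS1, which charges isoleucine, fell 1.40-fold from 356 and 383 to 267 and 261 CPM. Of 76 mitochondrial ribosome genes 34 fell and 1 rose (median -0.14), and with library totals 18 fell and 9 rose. MRPL44 (61.1 and 62.0 to 45.9 and 36.0 CPM) and MRPS2 (125 and 117 to 77.6 and 84.4) fell the most among those called. Proteasome genes were mostly not called: 8 of 38 fell and 1 rose (median -0.02), and with library totals 2 fell and 16 rose, so their direction is not settled by these data.

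Amino acid supply was uneven. Of 33 genes 18 fell and 3 rose (median -0.25, and 14 and 6 with library totals). PSAT1, the aminotransferase of serine synthesis, fell 2.73-fold from 242 and 241 to 88.8 and 88.0 CPM, while PSPH, the last enzyme of that route, rose from 46.6 and 46.1 to 56.6 and 61.4. Of 16 transporters 10 fell. SLC43A1, a carrier of large neutral amino acids, went from 84.0 and 86.2 to 49.6 and 49.5 CPM, and SLC7A11, the cystine importer with a 7mer-A1, from 49.6 and 52.3 to 33.6 and 28.7. ATF4, the transcription factor of amino acid stress, fell 1.21-fold, from 374.7 and 372 to 302 and 316 CPM. Its targets ASNS (3.66 and 4.47, then 4.01 and 3.63) and TRIB3 (95.1 and 87.9, then 103 and 95.7) were not called.

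Androgen signalling genes moved both ways. Of 32 genes 16 fell and 7 rose (median -0.12, and 9 each with library totals). KLK2, a kallikrein target, fell 1.95-fold from 291 and 287 to 137 and 159 CPM, ACPP, prostatic acid phosphatase, fell 1.55-fold from 101.4 and 101.03 to 63.8 and 66.7, and FKBP5, a cochaperone gene with a 7mer-A1, fell 1.46-fold. TMPRSS2 (228 and 231, then 217 and 228 CPM), also a target, was not called. KLK4 (147 and 139.5 to 164 and 171 CPM) and FOLH1 (771 and 772 to 851 and 855) rose. The coactivator gene NCOA3 rose 1.55-fold from 19.2 and 20.5 to 32.0 and 29.4 CPM and the luminal factor SPDEF rose from 153 and 148 to 187 and 196.

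Vesicle coat genes fell in 10 and rose in 7 of 28 cases. Their median of -0.07 turned to 0.05 with library totals, under which 6 fell and 12 rose. SEC23A, a COPII coat protein and reported target, fell 2.47-fold from 187 and 190.2 to 82.3 and 70.0 CPM. Its partners SEC24A (60.1 and 65.9 to 39.8 and 39.9 CPM) and SAR1A (156 and 153 to 100.6 and 99.97) and the cargo receptor LMAN1 (259 and 273 to 135 and 132) fell too, and all 4 hold a 7mer-A1. SEC23B, the paralogue of SEC23A, fell 1.10-fold, from 225 and 234 to 214 and 203 CPM, and SEC13, of the outer coat, rose from 120.2 and 124 to 149.7 and 148.

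Lysosomal genes rose more often than they fell, 18 against 8 of 32, at a median of 0.22. The protease gene CTSB rose 1.59-fold from 183 and 186 to 296 and 291 CPM and LAMP1, a membrane protein, from 181 and 176 to 214 and 227. In the proton pump 10 of 15 rose, with ATP6V1G1 at 141 and 129.6 and then 205 and 191 CPM, and 4 fell, with ATP6V1A at 139 and 146 and then 120.5 and 116.

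Interferon pathway genes rose in 26 and fell in 4 of 62 cases (median 0.23). The rises were mostly in the antiviral output, 19 of 38. IFIT1 (2.72 and 3.01 to 8.16 and 8.31 CPM), IFI44 (3.05 and 2.84 to 9.43 and 9.19), RSAD2 (0.846 and 0.859 to 2.93 and 2.99) and IFI6 (8.95 and 8.94 to 19.7 and 21.1) are examples. MX1 (1.45 and 1.89, then 1.33 and 1.44 CPM), ISG15 (36.6 and 31.3, then 37.6 and 36.1) and OAS1 (2.78 and 2.01, then 2.36 and 3.05) belong to the same output and were not called, and OAS2, OAS3 and PARP12 fell. Upstream, 4 of 10 signal transducers rose: IRF7 (4.84 and 4.30 to 7.05 and 7.70 CPM), IRF1 (4.56 and 3.64 to 5.91 and 6.31), TYK2 and STAT2. Of 7 sensors, DDX58, which detects viral RNA, rose from 5.11 and 5.44 to 7.18 and 7.95 CPM, and MAVS rose, with its call lost without the first control (adjusted p = 0.144). Among ligands and receptors IFNGR2 rose and IFNAR1 fell, and IFNB1 and the lambda interferons IFNL1, IFNL2 and IFNL3 did not pass the count filter. MHC class I genes rose in 9 of 15 cases and fell in 1 (median 0.26): the peptide transporter gene TAP1 went from 15.1 and 15.4 to 23.9 and 22.2 CPM and HLA-C from 177 and 168 to 230.3 and 222, while HLA-F fell from 4.20 and 3.44 to 2.55 and 2.60. Genes of the HLA family share sequence, and no source used here says how reads that fit several were counted.

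Among synaptic vesicle and neuroendocrine genes 22 of 32 passed the filter, 12 rose and 1 fell (median 0.38). SYT7, a calcium sensor of exocytosis, rose 1.58-fold from 54.3 and 59.5 to 88.7 and 91.4 CPM and ENO2, the neuronal enolase, 1.38-fold from 69.6 and 72.2 to 102 and 93.8. RAB37 (1.15 and 1.63 to 5.04 and 5.15 CPM) and STMN4 (1.33 and 1.86 to 5.10 and 6.95) rose from traces, and SYT4 fell from 312 and 326 to 261 and 229.8. These 22 passed the filter because they were counted in at least 1 group, so their number says nothing about the 10 that did not pass.

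In the Hippo pathway 7 of 20 genes fell and 5 rose, and the median of -0.04 turned to 0.09 with library totals. YAP1 fell 2.05-fold from 121 and 125 to 62.2 and 58.0 CPM, TAZ (WWTR1) as given above, and MOB1A, a kinase adaptor with a 7mer-m8, 1.73-fold from 62.3 and 66.1 to 38.1 and 36.1. TEAD1 (24.1 and 26.3 to 34.1 and 30.6 CPM) and LATS2 (8.04 and 8.45 to 13.7 and 11.5) rose. Of the 9 members with a match of 7 or 8 bases, LATS1 (44.9 and 48.8, then 55.2 and 47.8 CPM) and STK3 (31.4 and 30.9, then 30.3 and 30.5) were among those not called. Apoptosis regulators fell in 6 and rose in 7 of 31 cases (median 0.07). The death receptor gene TNFRSF10B rose 1.32-fold from 186 and 188 to 252 and 243 CPM and CASP2 fell 1.48-fold from 49.0 and 46.0 to 32.1 and 32.0.

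**Figure D4:**
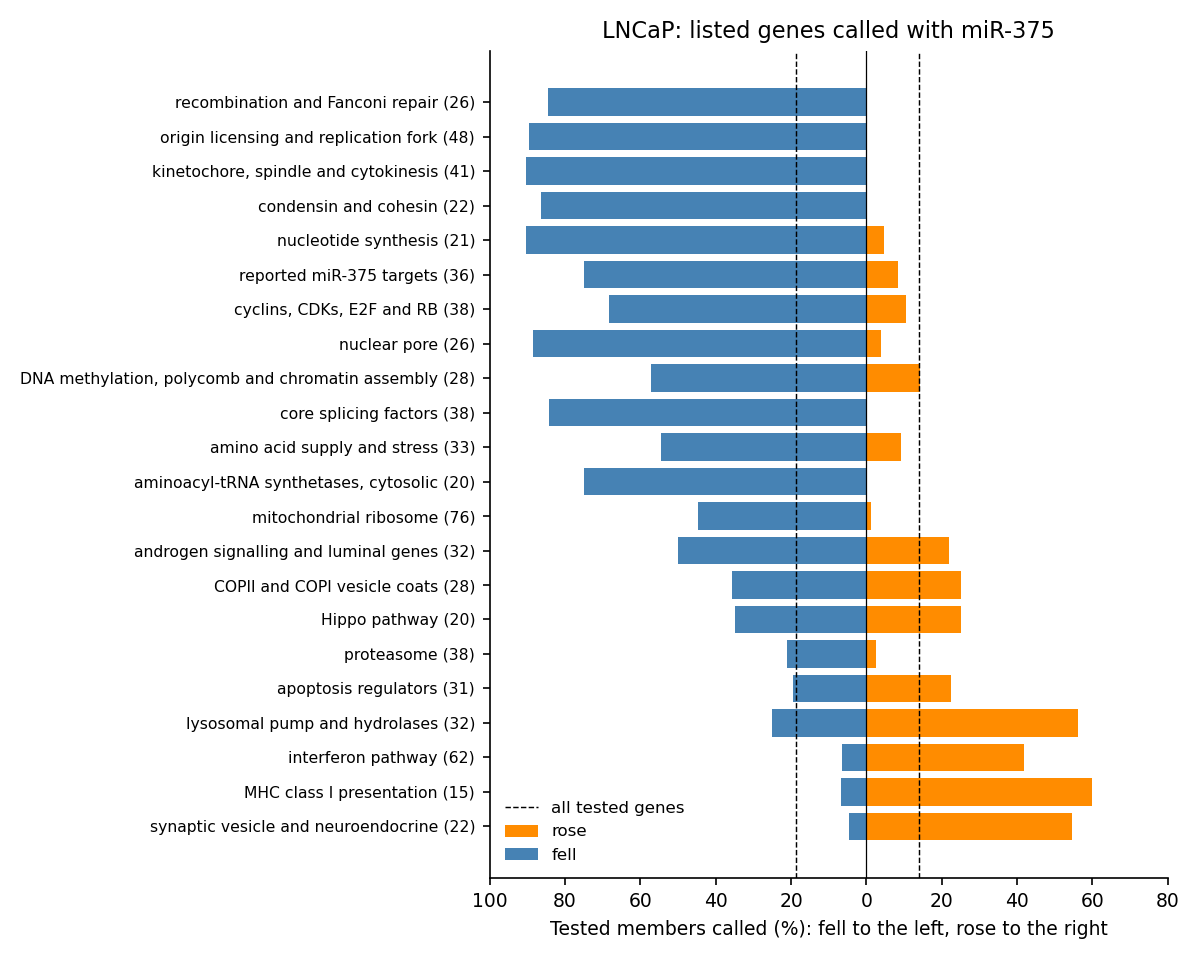
Percent of the tested members of each of 22 gene lists that fell (bars to the left) or rose (bars to the right) with miR-375 in LNCaP, with dashed lines at 18.7% and 13.9%, the shares over all tested genes. Most cell division lists have long bars to the left and almost none to the right. The cyclin, CDK, E2F and RB list (4 of 38 rose) and the DNA methylation, polycomb and chromatin assembly list (4 of 28) have bars on both sides. The interferon, MHC class I, lysosomal and synaptic lists have the longer bar on the right.

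The strong falls need a separate account, because part of them rest on trace genes that were not at the same level in the 2 controls. A strong fall is one of at least 2-fold that was called, a trace gene is one under 10 CPM on average in the controls, and controls are said to differ where the higher was at least 1.3 times the lower. Of the 465 strong falls, 236 were of trace genes, and in 131 of these (55.5% of the strong trace falls and 28.2% of all strong falls) the controls differed. In the other 105 trace genes the controls were within that ratio, and in 0 of the 229 strong falls at 10 CPM or more did they differ. Over all tested genes the controls differed in 48.4% of 11579 trace genes and in 0.316% of 9487 genes at 10 CPM or more, so unequal controls were usual at trace level. Among falls of at least 4-fold the share was larger still: 117 of 119 were of trace genes, and in 88 of these the controls differed.

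Unequal controls were most common at the bottom of the range, in the strong falls as in all genes. Under 1 CPM the controls differed in 87 of 119 strong falls (73.1%, against 63.0% of all tested genes at that level), between 1 and 3 CPM in 28 of 56 (50.0%, against 38.2%), and between 3 and 10 CPM in 16 of 61 (26.2%, against 13.7%). The first control was the higher one in 86 of the 131, whereas among all trace genes with unequal controls it was the higher in 50.1%. Level and direction went together: the first control was higher in 50 of the 87 under 1 CPM, in 23 of the 28 between 1 and 3 CPM, and in 13 of the 16 above that.

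**Figure D5:**
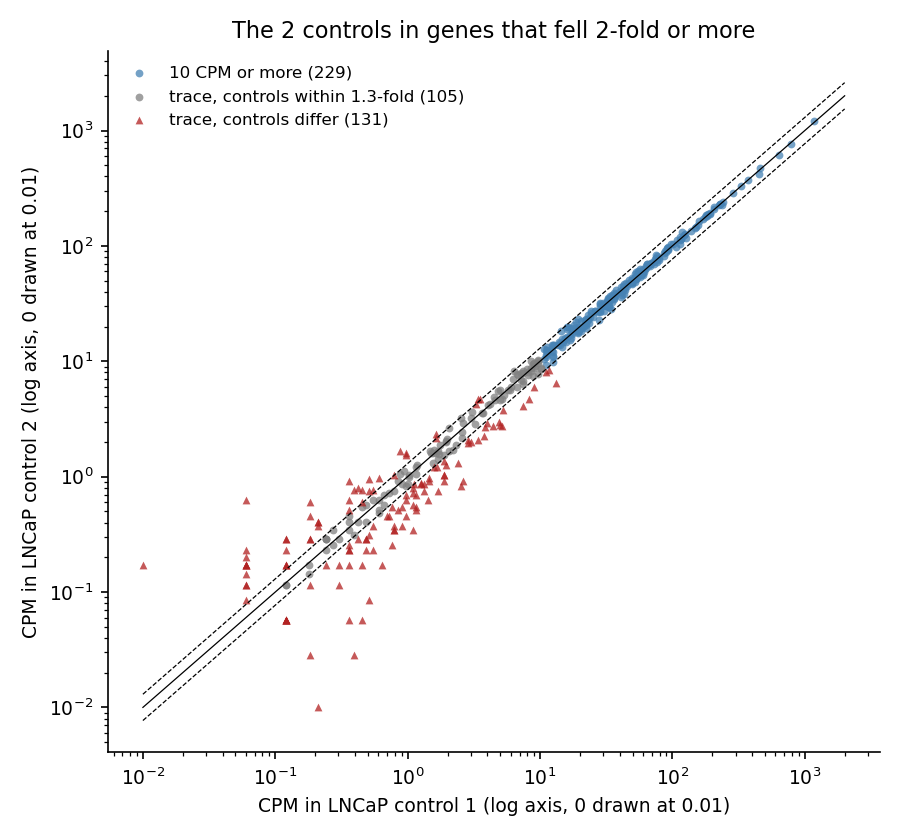
CPM of each strong fall in control library 1 (horizontal log axis) and control library 2 (vertical log axis), with a value of 0 drawn at 0.01 and dashed lines where the controls differ by 1.3-fold. The 131 trace genes with unequal controls (red triangles) lie outside the lines, more of them on the side where the first control is higher, and the 229 genes at 10 CPM or more (blue) and 105 other trace genes (grey) lie between them.

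Of the 88 falls of at least 4-fold, 20 had a mean of 1 CPM or more in the controls, and in 19 of these the first control was higher. Their control ratio ran from 1.36 to 3.06 with a median of 1.78. They were LGALS3, TGFBI, UCHL1, TBXT, AKR1B10, SPP1, CDH11, RGS2, GALC, TFPI2, GDA, CAV1, QPCT, CXCL1, KCNE4, COL8A1, SMOC1, DIO2, SCARA5 and CBX3P9. LGALS3, which encodes galectin-3, stood at 13.3 and 6.45 CPM in the controls and 1.03 and 0.637 with miR-375. TGFBI, a matrix protein, stood at 11.1 and 8.02, then 0.813 and 0.665, the ubiquitin hydrolase UCHL1 at 8.98 and 6.02, then 0.217 and 0.498, and the notochord factor TBXT at 8.28 and 4.67, then 0.217 and 0.166. In these 4 the controls differed from each other by several CPM, and both libraries with miR-375 still lay far below the lower control. The fall of LGALS3 lost its call without either library with miR-375 (adjusted p = 0.0674 and 0.0803).

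Several of the 20 reached 0 or nearly so. The protease inhibitor gene TFPI2 stood at 2.54 and 0.831 CPM in the controls and had 0 counts with miR-375, so that it was at least 40.4-fold lower (against a floor of 3 counts over the group), and its call was lost without either PC3 control (adjusted p = 0.0639 and 0.0652). GDA, guanine deaminase, stood at 1.93 and 1.26 CPM and then at 0, at least 38.6-fold lower. SPP1, which encodes osteopontin, stood at 5.17 and 2.72 CPM and then 0 and 0.0277, a ratio of 286 with a 95% counting interval from 50.8 to 11322. RGS2, a regulator of G protein signals, stood at 3.42 and 2.06 and then 0.0542 and 0 CPM, a ratio of 99.3 (27.1 to 826). Such intervals cover counting error only, and they take each count as 1 fragment. The bounds of the form "at least" pool the 2 controls and take their counts as exact. They therefore leave out the difference between the controls. From 68.1% to 70.3% of counts of 1 to 20 in a library were even numbers. If each fragment gave 2 counts the bounds would be lower and the intervals wider: at least 20.4-fold for TFPI2, at least 19.3-fold for GDA, and from 25.2 to 5682 for SPP1 and 17.5 to 3986 for RGS2 (computed after seeing the data). The ratio of SMOC1 was 37.6 (10.02 to 316) and that of KCNE4 29.3 (9.70 to 145). The size of these folds is therefore loosely fixed. The libraries did not overlap in any of these 6 genes, but that held for 6841 of the 6860 called genes and adds nothing to the calls.

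The rest of the 20 kept some counts. AKR1B10, an aldo-keto reductase, stood at 7.44 and 4.12 CPM in the controls and 0.759 and 0.942 with miR-375, and the cadherin gene CDH11 at 3.99 and 2.89, then 0.379 and 0.0554. CAV1, the caveolin gene and a reported target without a match in its UTR model, stood at 1.87 and 1.37, then 0.434 and 0.222 CPM. GALC stood at 2.60 and 0.917, then 0.0542 and 0.111, COL8A1 at 1.42 and 0.630, then 0.163 and 0, and CXCL1 at 1.87 and 1.03, then 0.271 and 0.443. QPCT (1.87 and 1.03, then 0.298 and 0.277 CPM) lost its call without the first control (adjusted p = 0.0923). CBX3P9 (0.967 and 1.55, then 0.163 and 0.388 CPM), the one with the higher second control, lost it without that control (0.142) or without the first library with miR-375 (0.126). CBX3P9 is a pseudogene of CBX3, which fell 3.60-fold, and reads of near-identical copies cannot be told apart here. Leaving out the first control, the second control, the first and the second miR-375 library in turn, a choice made after seeing the data, 19, 19, 18 and 19 of the 20 still fell.

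The other 68 of the 88 were under 1 CPM in the controls, with 5 to 61 counts over both controls, and 35 had fewer than 20. The count filter ran over both lines, so a gene with few LNCaP counts could pass through its PC3 counts. ESM1, with 10 counts over the LNCaP controls, stood at 82.8 and 80.0 CPM in the PC3 controls. MMP23B, with 5 counts, stood at 4.64 and 4.02 CPM there, whereas MAGEB2 had 0 counts in every PC3 library. The spread was likewise estimated over all 8 libraries. Their control ratio had a median of 2.00 among genes counted in both controls. The first control was higher and no count was left with miR-375 in 18, among them ABCC3, MAGEB2, IL6, PSG5, SLFN11, LYPD1, TOX, SLC6A15, ZNF114, BACH2, CDKL2, APOBEC3G, LINC01085, LINC00520, SIX3, ITGB2-AS1 and SCN9A. The first control was higher and some counts were left in another 18: SLC12A3, RP9P, AL662907.2, GPRIN3, LINC00824, CLDN5, PDK4, CSRP2, GNG11, MMP2, H3C2, CDH13, SLCO4A1-AS1, PTGES3P3, FOXQ1, LSAMP, AMDHD1 and DAB2. With the second control higher, 16 had no count left: IFI16, CCDC68, G0S2, ESM1, ANKRD1, AL023803.2, MROH2A, KLHL4, RAB42, DCC, PPP1R36, AC006262.2, ST6GAL2, EPGN, L3MBTL4 and MMP23B. In the last 16 the second control was higher and some counts were left: IGFN1, OLR1, TAGLN2P1, RAB4B, RIMKLBP2, AC021106.3, FLG, FGF2, FER1L6, PRR5L, SEMA3D, CHRDL1, AL137186.2, RASGRP3, SLC22A3 and AC004263.2. CDKL2 and L3MBTL4 had 0 counts in 1 of the controls as well. No gene of the 68 was above 0.271 CPM in a library with miR-375, and which control was higher was close to evenly split, 36 against 32.

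The remaining 43 of the 131 fell between 2- and 4-fold. The first control was higher in 31, among them DNER, TENM3, AC021106.1, FAM20A, HVCN1, AXL, AL133325.3, TGFB2, HR, CCN2, ACOX2, S100P, SHISA2, OLFML2A, GRAMD1B, AKR1C1, MATN2, ALPK2, TENT5A, CLDN1, H2AC20, AC011498.7, PMP22, DKK1, PDE4B, DUSP18, AL591069.1, TIMP1, PDE4A and AL022311.1. The second was higher in 12: TNFSF10, FABP5, RFTN1, IQUB, PIGCP1, FOSB, HSPA6, GC, ZNF724, LFNG, HPSE2 and FANCB. S100P, a calcium-binding protein, stood highest, at 11.6 and 8.34 CPM in the controls and 3.55 and 3.68 with miR-375. AKR1C1, a steroid-converting reductase, stood at 5.29 and 3.78, then 2.01 and 1.38, and HPSE2 at 3.39 and 4.70, then 1.25 and 0.942. In these 3 the libraries with miR-375 lay below both controls. ALPK2 (4.93 and 2.98, then 1.79 and 1.25 CPM) lost its call without the first control (adjusted p = 0.255) or the second miR-375 library (0.0990). At the edge of the rule, PMP22 (1.12 and 0.859 CPM in the controls) was just inside the ratio of 1.3 and NEIL3 (6.32 and 8.19) just outside it.

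Fewer of these calls stood when a LNCaP library was left out, and fewer LNCaP falls were called over all genes in those settings too. Each such fit leaves a single library in a group, so some loss of calls is not particular to the 131. The share lost was larger among the 131 than the drop in the number of LNCaP falls over all genes. The 131 were followed through these settings after seeing the data. Counted anew without the first library with miR-375, 86 genes met the rule in place of 131. Of the 131, 108 had a UTR model, and 19 of these (17.6%) had a match of 7 or 8 bases, against 14.6% of tested genes with a UTR model. The share was 22.9% (19 of 83) in the strong trace falls with controls within the ratio. It was 30.7% (70 of 228) in the strong falls at 10 CPM or more.

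Some of the 131 are genes with a clear level in PC3. In the PC3 controls 43 of them stood at 10 CPM or more, and in 31 of those 43 the first LNCaP control was the higher one. That is 32.8% of the 131, and no share over all tested trace genes is given here. Among the 20 falls of at least 4-fold from 1 CPM or more it was 9 (45.0%). In all 9 the first LNCaP control was higher, as in 19 of the 20. Over all 88 falls of at least 4-fold it was 25 (28.4%). Among the 105 strong trace falls with even controls 41 (39.0%) stood at that level in PC3. TFPI2 stood at 121 and 119 CPM there, RGS2 at 254 and 252 and CDH11 at 471 and 466, while GDA had 0 counts in every PC3 library. The 14 PC3 marker genes summed to 68.4 and 51.9 CPM in the LNCaP controls and to 60.6 and 53.9 CPM with miR-375, and 5 of them rose and 4 fell. There were 434 genes at 50 CPM or more in the PC3 controls and under 10 in the LNCaP controls. Of these 84 fell and 113 rose, at a median log2 change of 0.10 and a median ratio of the first to the second control of 1.06. Both counts are larger shares than those of all tested genes at low LNCaP level. Under 1 CPM over the 4 LNCaP libraries 2.23% fell and 3.99% rose, and between 1 and 10 CPM 7.89% fell and 15.6% rose. The part of the PC3 marker level in the trace falls was not tested. Summed markers of fibroblasts ran from 48.2 to 59.2 CPM over the 4 libraries, those of endothelium from 7.86 to 9.25 and those of leukocytes from 0.574 to 1.19, with CD3E and MS4A1 among those at 0 counts. The 10 LNCaP markers summed to 6202 and 6178 CPM in the controls and 4804 and 4933 with miR-375, with KLK3 among them.

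Trace falls with even controls give the contrast. Of the 29 that fell at least 4-fold, PSG1 stood at 1.15 and 1.06 CPM and had 0 counts with miR-375 (at least 26.8-fold lower), and the natriuretic peptide gene NPPB at 0.604 and 0.630 and then 0 (at least 15.0-fold). The keratin gene KRT7 stood at 1.72 and 1.58, then 0.0542 and 0.111 CPM and PPP1R3C, a glycogen-targeting subunit, at 1.69 and 1.66, then 0 and 0.111. SFRP1, a secreted Wnt antagonist, stood at 0.846 and 0.917, then 0.108 and 0.166. In these genes the controls were nearly equal and each library with miR-375 was far lower. Between 2- and 4-fold, the reported target LDHB stood at 7.19 and 7.93, then 1.84 and 2.60 CPM and the amino acid carrier SLC6A19 at 6.71 and 7.73, then 2.17 and 1.66. PSG1 belongs to a family of near-identical genes and its counts are uncertain.

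Strong rises were more often of trace genes than strong falls were, and 466 of the 507 were under 10 CPM with miR-375. In 206 of those (44.2%) the 2 libraries with miR-375 differed by the same ratio, close to the 46.0% of all 11583 tested genes under 10 CPM with miR-375, and in 0 of the 41 at higher level.

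The effect in LNCaP and that in PC3 were compared by the interaction term, LNCaP effect minus PC3 effect. It was called for 5589 of 21066 genes (26.5%), and for 3315 of the 6860 genes called in LNCaP (48.3%). PC3 had 9059 calls (43.0%), 4380 of them falls (20.8%). Of the LNCaP falls 2215 also fell in PC3, which is 56.3% of the LNCaP falls and 50.6% of the PC3 falls. Another 541 rose there, and 1177 were not called. Of the LNCaP rises 1495 rose in PC3 (51.1% of the LNCaP and 32.0% of the PC3 rises) and 365 fell there. In all 906 genes with opposite calls the interaction was called, which opposite calls in the same model make nearly certain. Line and serum share cannot be told apart in this comparison.

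Among the largest LNCaP changes, the interaction was not called for CDC6 (difference -0.18 ± 0.11 SE, adjusted p = 0.263), while those of MCM10 (-0.77) and UHRF1 (-0.52) were larger in LNCaP. WWTR1 fell by 1.18 more on the log2 scale than in PC3, where it went from 462 and 466 to 289.8 and 287 CPM. OASL rose more in LNCaP than in PC3 (1.15), as did IFIT2 (1.68), which in PC3 stood at 71.6 and 74.5, then 87.0 and 84.3 CPM. AMD1, which fell in LNCaP, rose in PC3 from 150.5 and 153 to 216 and 216 CPM (difference -1.16). By rank of the difference alone, the genes named included NOS3, SUSD4, TNFRSF10D, KLHL1, GPRIN2, AC092535.5, UGT2B10, DNAH8 and LYNX1, all of which were at or below 0.333 CPM in every PC3 library, so that their PC3 effect rests on a few counts. In LNCaP itself KLHL1 fell 2.20-fold from 176 and 176 to 80.4 and 79.5 CPM and the endothelial nitric oxide synthase gene NOS3 rose 1.92-fold from 8.92 and 9.28 to 17.1 and 17.8. The calls of GPRIN2, AC092535.5, UGT2B10, DNAH8 and LYNX1 in LNCaP were each lost under DESeq2 or without 1 of the LNCaP libraries.

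Opposite effects at a measurable level in both lines were found by a rule added after seeing the data, which asked for 10 CPM or more in a group of each line. FAM43A rose in LNCaP, from 62.9 and 65.0 to 87.6 and 88.0 CPM, and fell in PC3, from 451 and 455 to 138 and 134 (difference 2.19 ± 0.06 SE, adjusted p = 4e-26). BCL2L1 rose in LNCaP as given above and fell in PC3 from 399 and 392 to 193 and 204 CPM (difference 1.58). GPR153, an orphan receptor gene with a 7mer-m8, rose from 5.77 and 4.61 to 12.3 and 10.6 CPM in LNCaP and fell from 254 and 249 to 184 and 188 in PC3. The groups did not overlap in either line in these 3 genes. TLL1, a matrix protease gene, fell in LNCaP from 132 and 142 to 86.8 and 86.7 CPM and rose in PC3 from 9.51 and 9.32 to 60.6 and 56.4. TMEM45B fell in LNCaP from 60.6 and 64.9 to 37.2 and 37.3 CPM and rose in PC3 from 25.4 and 24.7 to 145 and 144. ID3, an inhibitor of helix-loop-helix factors, stood at 100.1 and 88.9, then 82.0 and 80.5 CPM in LNCaP and rose in PC3 from 30.4 and 32.1 to 251 and 257. The LNCaP fall of ID3 lost its call with library totals (adjusted p = 0.146) and without the first control (0.372), so only its PC3 rise and the difference stood in those settings.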

How the data were processed

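Poly(A) RNA from cultured cells was sequenced, per the labels' protocols: total RNA was extracted (miRNeasy), selected with oligo(dT), made into dUTP-marked stranded libraries and read as 150-base pairs on a NovaSeq. The authors deposited 1 table of whole-number counts per gene for all libraries, not normalized. The submitters' processing notes name fastp, STAR 2.7.1a, featureCounts, DESeq2 and hg38. Their roles, the annotation, the strand setting and the counting of mates are not stated in those notes. Antisense, overlapping and near-identical genes are therefore uncertain. From 68.1% to 70.3% of counts between 1 and 20 were even numbers, and counts halved and rounded up were an alternative.

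Of 60625 gene lines 3 broken ones were left out (279 counts), so ANK2 was not analysed here. A few other genes are not reported here, although they entered every fit and count. LNCaP library totals ran from 33973861 to 35689829 and those of PC3 from 40245979 to 41890528. A count of 0 in a library allows up to 3 counts. Replicates had Pearson's r of 0.997 across genes and differed by more than counting noise (chi-square over its degrees of freedom was 3.57 to 3.79), so none was treated as a duplicate.

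The 21066 genes that passed filterByExpr by group were fitted with edgeR 4.0.16 in R 4.3.3 (TMM, glmQLFit with robust estimation, glmQLFTest) in 1 model of 4 groups over 8 libraries, with 4 residual degrees of freedom. Adjusted p-values are Benjamini-Hochberg over all tested genes. The fit was tested on simulated counts. CPM uses TMM-scaled library sizes. For UTR matches 1 basic protein-coding transcript of GENCODE release 29 (GRCh38) was taken per gene, the best APPRIS class and then the longest. Of 60622 gene IDs 58515 were in that release.

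The gene lists, the naming rule and the thresholds were chosen with earlier results of these data known. Genes were named by rule: the 10 largest rises and falls at 10 CPM or more, every trace fall of at least 4-fold with unequal controls and the 5 highest of those between 2- and 4-fold, the 6 largest gains and losses in CPM, up to 3 called members of each list role with uncalled defining members, and the 5 largest differences from PC3 each way. The 10 largest rises and falls were also required to have controls and libraries with miR-375 that did not overlap. Other listed members were named after their values were seen. Alternatives were library totals, upper-quartile scaling, DESeq2 1.42.0, limma-voom (limma 3.58.1), other filters, LNCaP alone, halved counts, a replicate block and each library left out.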

Additional observations from a re-analysis of the deposited data

Results flagged for a closer look

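The interaction test called a difference between the effect in LNCaP and that in PC3 for 3315 of the genes called in LNCaP. The following are log2 effects in LNCaP minus PC3, all past that test at an adjusted p under 0.05. Positive differences among rises and gains were those of OASL (1.15), IFIT2 (1.68), C1QTNF6 (1.26), RIMS3 (0.70), GPER1 (1.18), MT-RNR2 (0.46), MT-CO2 (0.59) and PERP (0.66), and the fall of EEF1A1 was smaller than in PC3 (0.11). The difference of GPNMB was -3.01, and its PC3 fold rests on controls near 0 (0 and 0.415 CPM, then 4.81 and 4.94 with miR-375). Negative differences among falls and losses were those of MCM10 (-0.77), CLSPN (-0.49), UHRF1 (-0.52), ZNF367 (-0.45), WWTR1 (-1.18), FAM111B (-0.68), RBM24 (-1.06), EEF2 (-0.48), RPL4 (-0.13), HNRNPA1 (-0.30) and AMD1 (-1.16). Among genes at 10 CPM or more in both lines, chosen after the values were seen, the widest differences were those of FAM43A (2.19), IFIT2 (given above), GPR153 (1.58), BCL2L1 (1.58) and PRKCH (1.54) above PC3, and those of TLL1 (-3.29), TMEM45B (-3.28), ID3 (-3.24), HILPDA (-2.49) and SLC7A2 (-2.07) below PC3. MT-RNR2 and MT-CO2 rose in LNCaP and fell in PC3. PRKCH stood at 10.2 and 11.4 CPM in the LNCaP controls and 14.9 and 13.2 with miR-375, and at 113 and 119.6 and then 51.7 and 51.9 in PC3. HILPDA went from 27.1 and 23.8 to 19.9 and 18.5 CPM in LNCaP and from 27.9 and 27.4 to 119 and 115 in PC3.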

How the results depend on the processing

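Of 3352 pairs of a named gene and an alternative, 3272 kept direction and call, 79 lost the call and 1 reversed. That was EEF1A1 with library totals, at 0.0256 on the log2 scale against -0.10, and it was not called there. Its fall with TMM was smaller than the 0.12 by which that scaling moved the median of all genes. No gene called in both TMM and an alternative changed direction, but library totals gave 4719 rises and 2613 falls, with 5540 of 7332 calls shared, and 166 listed genes rose against 108. Its median over all tested genes lay 0.12 above that with TMM. A minimum of 1 CPM, by which fewer genes were tested, left 278 falls of at least 2-fold and 23 trace falls with unequal controls. That count was 47 at a control ratio of 2 or more, 95 at 1.5, 125 under 5 CPM, 131 under 20 CPM, 94 in DESeq2, 108 with LNCaP alone, 89 with halved counts and 96 with at least 20 control counts (added after seeing the data). Leaving out single libraries gave from 2694 to 3129 rises, 2810 to 3907 falls, 422 to 566 rises and 380 to 477 falls of at least 2-fold, 2547 to 2996 differences from PC3 among LNCaP calls, 337 to 345 listed falls and 103 to 118 listed rises. The trace count ran from 86 (without the first miR-375 library) to 146, and without either LNCaP control no value can be given. No source used here says whether same-numbered libraries were paired. Their deviations had r = 0.0179 in LNCaP across all tested genes and -0.0504 at 10 CPM or more. Such values cannot show that the libraries were not paired. With the replicate block there were 2899 rises and 3876 falls, 496 and 459 of at least 2-fold, 125 trace falls with unequal controls, 3185 differences, 383 listed falls and 106 listed rises, and 6699 of 6775 calls were shared. The median difference between genes with and without a UTR match was -0.15 with TMM and -0.13 with 8mers alone. It was -0.15 with library totals too, which move all genes nearly alike and could hardly change it. Depth limits the lowest genes: under 1 CPM a gene holds few counts per library, and their folds are loosely fixed.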
